A study of Mus musculus with 12 samples.

Results

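The genes described here are the 9 cathepsins Ctsa, Ctsb, Ctsc, Ctsd, Ctsk, Ctsl, Ctso, Ctss and Ctsz and legumain (Lgmn), 10 of the 25239 genes in the expression table, chosen by gene symbol. The same symbols were looked for among the 2643 m6A peaks in the peak table, and 3 peaks were found. The samples were HT22 cells, a mouse hippocampal neuronal line, left untreated (0 μM) or treated with 800 μM mesaconitine (MA), a diterpenoid alkaloid of Aconitum plants, for 72 h. Each condition had 3 input libraries, which are RNA fragments before enrichment, and 3 libraries of fragments bound by an antibody against m6A (IP), 12 libraries in all, from a single cell line with no other allele or agent named in the labels. The tables held 1 comparison of MA with control and no value of a single library, so each change is given with the deposited standard error (SE), and library depths are unknown. The expression table does not say which group its log2 fold changes are relative to, and the study itself is divided on it. Its genes shown as changed with MA, those of autophagy among them, have the opposite sign in the table, whereas its list of m6A regulators carries the sign as deposited. By quantitative RT-PCR, with primers listed for Ctsb and Ctsd among others, the study also reported higher expression of several autophagy genes after MA. That is the direction that a reversed sign gives for Ctsb and Ctsd. The internal reference of that RT-PCR was Actb, which itself had a log2 fold change of −0.31 ± 0.04 (SE) with the sign reversed. The changes were read here as control over MA and reversed, so every direction of expression below rests on that reversal and would turn without it. The sizes, errors and p-values do not depend on it, nor do the directions of the m6A peaks.

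Cathepsins are proteases that work mainly in the acid interior of lysosomes, where they break down proteins delivered by endocytosis and autophagy. They are made as inactive proenzymes in the endoplasmic reticulum, tagged with mannose 6-phosphate in the Golgi, carried to lysosomes by receptors for that tag, and cut there into active enzymes. Most of the genes here (Ctsb, Ctsc, Ctsk, Ctsl, Ctso, Ctss and Ctsz) encode cysteine cathepsins. Ctsd encodes an aspartic protease, Ctsa a serine carboxypeptidase and Lgmn a cysteine endopeptidase that cuts after asparagine. Many lysosomal genes carry the sequence CACGTG near their start, which transcription factors of the MiT/TFE family, such as TFEB, can bind.

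The promoter sequences of the genes are shown first. Whether they bear on the changes of expression given below was not tested. RefSeq windows of 250 bases before to 50 bases after an annotated start (build GRCm38.p6) were present for 9 of the 10 genes, 11 windows in all. Ctsb had no entry. The letters CACGTG, which read the same on both strands, were found in windows of 4 genes (Ctsa, Ctsd, Ctsl and Lgmn), against 8.09% of the 27025 genes in the table. The longer TCACGTG, on either strand, contains CACGTG and was found in 3 genes (Ctsa, Ctsd and Lgmn), against 4.29% of genes. These shares cover all genes with a window, expressed or not. Among the 9817 tested genes with a mean scaled count of 10 or more, to which these 3 genes belong, 688 held TCACGTG. The share with CACGTG among such genes was not computed. The matches are given 5′ to 3′ on the gene's strand, with CACGTG in capitals together with a T just before it and an A just after it where these are present.
Ctsa, chr2:164833750-164833777, plus strand: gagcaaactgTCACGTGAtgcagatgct
Ctsa, chr2:164833767-164833794, plus strand: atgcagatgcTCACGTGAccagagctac
Ctsd, chr7:142388056-142388077, minus strand: tccccCACGTGAcctgtatcca
Ctsd, chr7:142387909-142387936, minus strand: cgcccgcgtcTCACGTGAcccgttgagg
Ctsl, chr13:64370740-64370767, minus strand: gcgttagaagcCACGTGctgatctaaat
Lgmn, chr12:102439125-102439152, minus strand: ggaatgtctgTCACGTGgtccattttat
Ctsa and Ctsd each held 2 positions, whereas 0.594% of the 32851 windows in the table held 2 or more. The first Ctsa position lay 12 bases before the annotated start and the second 5 bases after it, and the Lgmn position lay 49 bases before its start. The Ctsd positions lay 245 and 98 bases before the start, and the Ctsl position 236 bases before it. The windows of Ctsc, Ctsk, Ctso, Ctss and Ctsz held none, which says only that these letters are not in these windows.

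The levels of the genes spanned a wide range. The base mean, the mean count over libraries after scaling for depth, was divided by the length of the longest coding transcript to compare genes. Ctsd stood highest at 6071 per kb, followed by Ctsl at 5082, Lgmn at 4069, Ctsz at 2512, Ctsb at 1899 and Ctsa at 1538. Each of these 6 genes lay at percentile 87.2 or higher of the 14014 tested genes with a coding length, whose median was 256 per kb. Ctso, a widely expressed cysteine cathepsin, stood below that median at 103 per kb. Ctsk at 5.18, Ctss at 0.485 and Ctsc at 0.200 per kb were near the bottom of the range. These 3 are known from osteoclasts (Ctsk), antigen-presenting cells (Ctss) and cells with granule proteases (Ctsc). The level of Ctsk is uncertain, since its m6A peak alone held 95 input reads, many beside its base mean. The order among the upper 6 depended on the length used, since with the mean length of coding transcripts Ctsl stood highest at 15287 per kb, and Ctsa, at 3420 per kb, stood above Ctsz and Ctsb. The spread between libraries of these levels was not known, so neighbours in the order were not tested against each other.

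**Figure D1:**
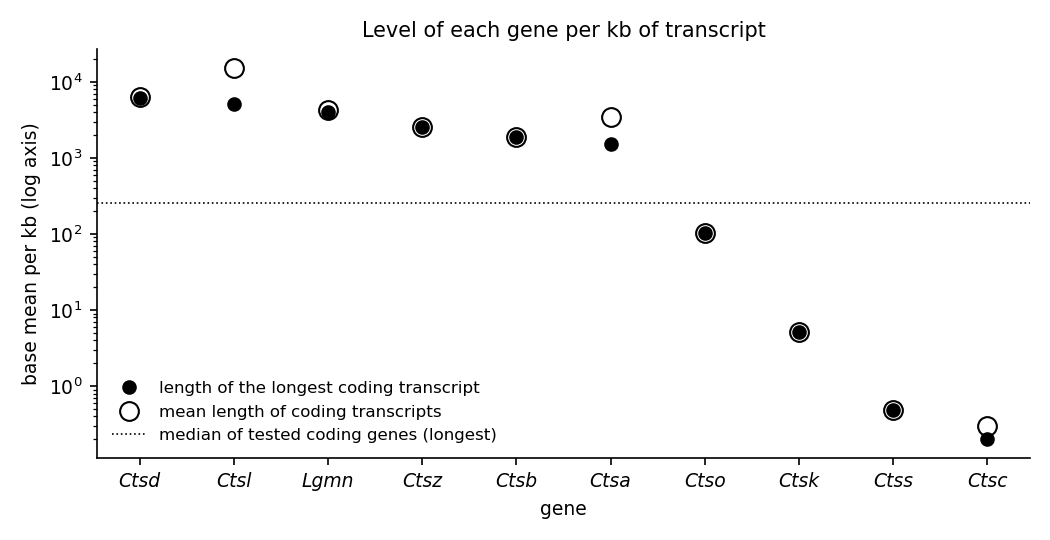
Base mean per kb of transcript (log axis) for each gene, from the longest coding transcript (filled) and the mean length of coding transcripts (open), with the median of tested coding genes as a dotted line. Ctsd, Ctsl, Lgmn, Ctsz, Ctsb and Ctsa stand above the median of 256 and Ctso, Ctsk, Ctss and Ctsc below it.

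After MA treatment, mRNA of Ctsa, Ctsb, Ctsd and Ctsz rose and that of Ctso fell. Calls required an unadjusted p below 0.05 together with a change of over 1.2-fold. By this rule 4 of the 10 genes were called higher, against 6.8% of the 16167 tested genes, and 1 was called lower, against 7.07%. Of the 6 genes with a base mean of 1000 or more, 4 were called higher, against 9.79% of 6458 tested genes at such levels. Without the fold limit and with an adjusted p under 0.05, 6 of the 10 genes passed, all of them higher, against 12.7% of tested genes in either direction. Of the tested genes, 13427 had an adjusted p and could pass. The 6 genes that passed were those with a base mean of 1000 or more, and the share at such levels was not computed for this rule. The median log2 fold change of the 10 genes was 0.32, and that of all tested genes was −0.01.

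Among the cysteine cathepsins, Ctsb, which acts as both an endopeptidase and a carboxypeptidase, had the largest change of the genes called higher. Its base mean was 9007 and its log2 fold change 0.64 ± 0.07 (SE, 3 libraries per group), a 1.55-fold rise with a 95% interval of 1.41 to 1.71 (adjusted p = 4.03e-16, Wald test of DESeq2). Ctsz, a carboxypeptidase, had a base mean of 3620 and rose by 0.37 ± 0.09 on the log2 scale (adjusted p = 0.000295), 1.30-fold with an interval of 1.15 to 1.46. Ctsl, an endopeptidase and the gene with the highest base mean of the 10 at 31348, had a log2 fold change of 0.24 ± 0.05 (adjusted p = 0.000115). Its 1.18-fold change stood under the 1.2-fold limit, so it was not called.

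Ctsd, the main aspartic endopeptidase of lysosomes, had a base mean of 12912 and rose by 0.57 ± 0.05 on the log2 scale, 1.48-fold with an interval of 1.38 to 1.59 (adjusted p = 1.07e-24). Its Wald statistic, the change divided by its SE, ranked 12 among the 16167 tested genes counted from the most positive. Ctsa, a carboxypeptidase that also stabilises neuraminidase 1 and beta-galactosidase in lysosomes, had a base mean of 5608 and rose by 0.57 ± 0.07, 1.49-fold with an interval of 1.36 to 1.63 (adjusted p = 1.68e-15). Its Wald statistic ranked 34 and that of Ctsb 29. Lgmn, which cuts several cathepsins into their mature chains, had a base mean of 8096 and a log2 fold change of 0.26 ± 0.05 (adjusted p = 3.65e-05). At 1.194-fold it also stood just under the limit, and it was the gene closest to it.

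The sizes of these changes formed an order in which only the ends stood apart. The 95% intervals of Ctsa, Ctsb and Ctsd overlapped each other, and their lowest bound was 0.44 on the log2 scale. Those of Ctsl and Lgmn ended at 0.36 or lower, so they did not overlap the first 3. The interval of Ctsz, from 0.20 to 0.55, overlapped both. The differences between genes were not tested.

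Ctso was the only well measured gene of the 10 with a negative change. Its base mean was 357 and it fell by 0.46 on the log2 scale with an SE of 0.19, a 1.37-fold decrease that passed only the unadjusted test (adjusted p = 0.0886, Wald test of DESeq2).

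For Ctsk, Ctss and Ctsc the counts behind the base mean were too low to show a change. Ctsk had a base mean of 7.84 and a log2 fold change of −1.41 ± 1.64 (adjusted p = 0.691). Its m6A peak alone held 41 input reads in control and 54 in MA, many beside that base mean. The level and change listed for Ctsk are therefore uncertain in themselves, and the reason for the mismatch was not tested. Ctss had a base mean of 0.658 and a value of 2.90 ± 3.98, and Ctsc a base mean of 0.646 and a value of −2.76 ± 3.97. Neither passed an unadjusted p of 0.05, and neither had an adjusted p. The intervals of all 3 spanned more than the whole range of the other 7 genes, and a large rise or fall was not detectable from these counts. The values of Ctss were shared exactly by 68 genes, Ctss included, and those of Ctsc by 73.

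**Figure D2:**
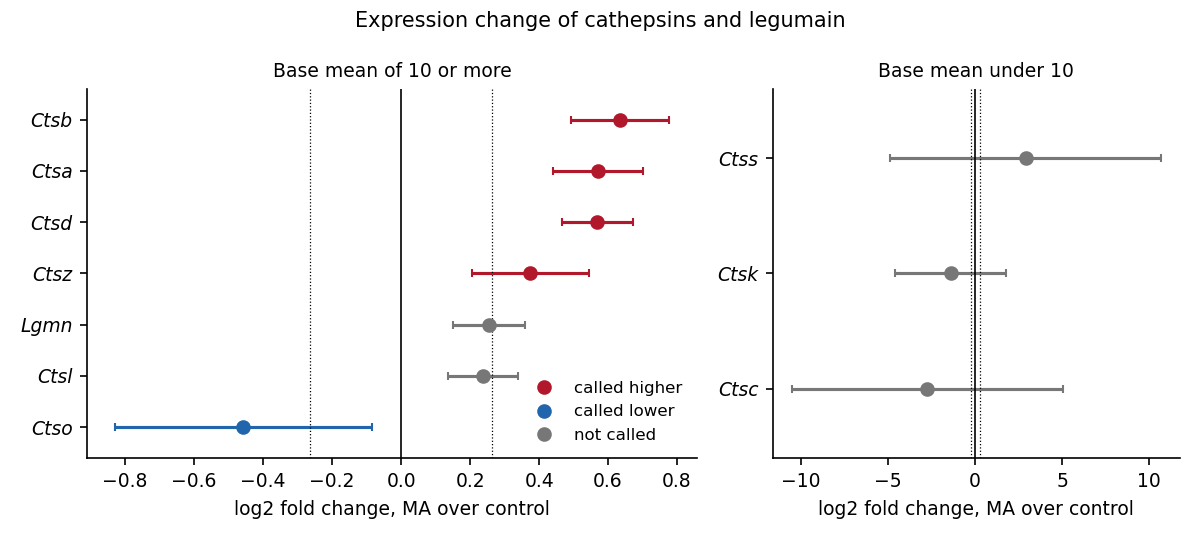
Log2 fold change of each gene, MA over control, with its 95% interval from the deposited SE, for genes with a base mean of 10 or more (left) and under 10 (right, wider axis). Dotted lines mark 1.2-fold. Ctsb, Ctsa, Ctsd and Ctsz are called higher and Ctso lower, while Lgmn and Ctsl stand just inside the dotted line.

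**Figure D3:**
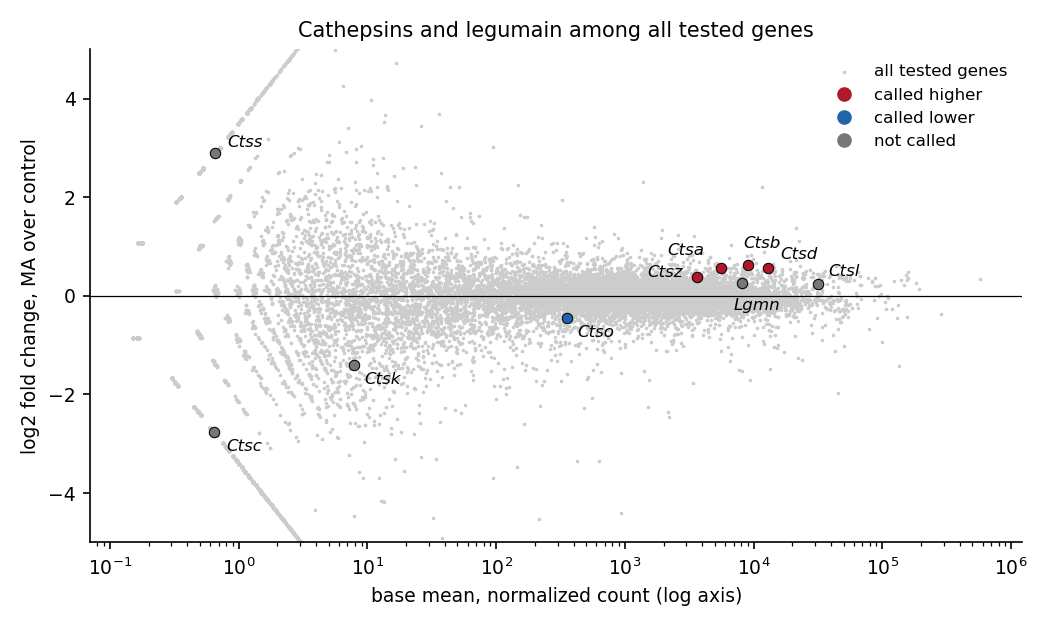
Log2 fold change, MA over control, against base mean (log axis) for all tested genes (grey; 156 genes lie beyond the plotted range) with the 10 genes marked. The 6 genes with a base mean above 1000 lie above 0, Ctso lies below it, and Ctsk, Ctss and Ctsc lie where the spread of all genes is wide.

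Some of the genes overlap others in the GENCODE M21 annotation. Ctsd shares 36.6% of the 50-base stretches of its longest transcript with Gm49369, a gene on the same strand that is not in the table, so reads of the pair cannot be told apart there. Ctsl shares 6.90% of its stretches with transcripts of other genes. On the opposite strand, Fdft1 covers 12.8% of the exonic bases of Ctsb, and Fdft1 had a log2 fold change of 0.30. Pltp and Neurl2 cover 10.5% and 6.87% of those of Ctsa, with base means of 1.41 and 11.3. Gm47123 covers 26.8% of those of Ctsl and is not in the table. Whether reads were counted by strand is not given in the sources used here.

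The remaining cathepsin genes were listed at 0 or near it. Of 14 such genes, 12 (Ctsf and Ctsh among them) were listed at a base mean of 0, and 2 had a p. Of these, 0 passed the Wald test of DESeq2 at an unadjusted and 0 at an adjusted p under 0.05. Ctse, an aspartic protease, had a base mean of 6.31 and Ctsw, known from cytotoxic lymphocytes, 0.968. A listing at 0 is not proof of absence, since 103 peaks lay on 96 genes listed at 0 and held from 17 to 983 input reads.

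Genes that act with cathepsins were described by role. Over 54 genes in 6 lists, 36 had a p, and 11 were called higher and 1 lower, against 6.8% and 7.07% of all tested genes and 9.79% called higher at a base mean of 1000 or more. The median log2 fold change of those with a p was 0.23. The lists do not contain the 10 genes themselves.

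Of the 12 inhibitor genes, 7 had a p, and 1 was called higher, against 6.8% of all tested genes. Cstb, the cystatin of the cytosol, had a base mean of 2785 and rose by 0.37 ± 0.08 on the log2 scale (adjusted p = 0.000104). Cst3, the secreted cystatin C, had a base mean of 6990 and a value of 0.06 ± 0.07 (adjusted p = 0.705). The interval of the Cst3 change, from −0.08 to 0.21, lay below the intervals of Ctsa, Ctsb and Ctsd. It overlapped those of Ctsl and Lgmn and, at its upper end, that of Ctsz.

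Of the 13 genes of mannose 6-phosphate tagging, receptors, adaptors and retromer, all with a p, 4 were called higher and 1 lower, against 6.8% and 7.07% of all tested genes. The enzymes that build the tag were all called higher. Gnptab rose by 0.27 ± 0.07 and Gnptg by 0.33 ± 0.11, the subunits of the phosphotransferase (adjusted p = 0.0018 and 0.0225). Nagpa, which uncovers the tag, rose by 0.57 ± 0.23 by the unadjusted test alone (adjusted p = 0.0764). Of the receptors for the tag, Igf2r, the cation-independent receptor, had a base mean of 2558 and fell by 0.38 on the log2 scale with an SE of 0.09 (adjusted p = 0.000402), and M6pr, the cation-dependent receptor, had a base mean of 5559 and a value of 0.18 ± 0.05 (adjusted p = 0.00601), under the fold limit. Vps26a, a retromer subunit, rose by 0.54 ± 0.17 (adjusted p = 0.0162), and the other subunits were not called, with 0.26 ± 0.05 for Vps35 and 0.09 ± 0.19 for Vps29. The adaptors Gga1, Gga2 and Gga3 had values of 0.14 to 0.24 and were not called.

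Of the 8 other lysosomal peptidase genes, all with a p, 3 were called higher, against 6.8% of all tested genes (9.79% at a base mean of 1000 or more), and none lower. Dpp7, a dipeptidyl peptidase, rose by 0.88 ± 0.09 (adjusted p = 1.01e-20), with an interval of 0.70 to 1.05 that overlapped that of Ctsb, 0.49 to 0.78. Tpp1, the tripeptidyl peptidase that is deficient in a childhood neuronal ceroid lipofuscinosis, rose by 0.61 ± 0.08 (adjusted p = 4.97e-13). Scpep1, a serine carboxypeptidase, rose by 0.38 ± 0.05 (adjusted p = 1.6e-14). Prcp at 0.23 ± 0.09, Cpq at −0.17 ± 0.08 and Ifi30 at −0.08 ± 0.11 were not called, nor were Ggh and Napsa. The list was thus mixed, with 4 positive and 4 negative values and a median of 0.07.

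Neu1, the neuraminidase that Ctsa holds in its active form, had a base mean of 950 and rose by 0.97 ± 0.12 (adjusted p = 2.01e-14). Psap, the saposin precursor that Ctsd cuts, had a base mean of 27248 and rose by 0.51 ± 0.13 (adjusted p = 0.00106). Glb1, the beta-galactosidase of the same complex, had a value of 0.24 ± 0.12 (adjusted p = 0.159) and was not called. Glb1, Ggh, Napsa and Tfeb fall outside the rule for naming genes and were named after their values were seen. Ctse, Ctsf, Ctsh, Ctsw, Tfec, Csta1 and Actb also fall outside that rule, as do the uncalled peaks of Gnptab and Prcp.

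Among the genes of the MiT/TFE factors, 1 of the 3 with a p was called higher, against 6.8% of all tested genes. Mitf rose by 0.74 ± 0.28 by the unadjusted test alone (adjusted p = 0.0554). Tfe3 had a value of 0.10 ± 0.08 (adjusted p = 0.511) and Tfeb of −0.39 ± 0.21 (adjusted p = 0.234), and Tfec was listed at 0.

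**Figure D4:**
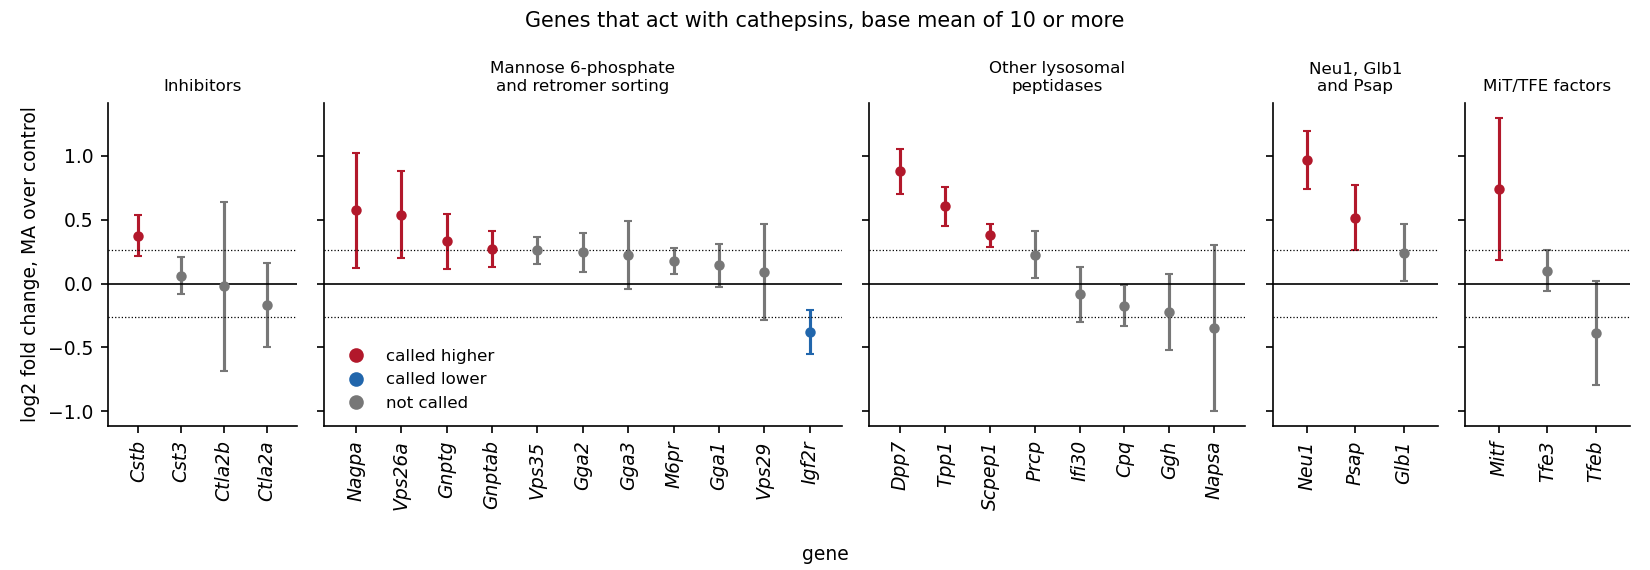
Log2 fold change, MA over control, with 95% intervals for genes that act with cathepsins and have a base mean of 10 or more, grouped by role, with dotted lines at 1.2-fold. Neu1 and Dpp7 lie highest among genes called, and Igf2r is the only gene called lower.

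The m6A peaks on the genes carry the sequences that the antibody data concern. The peaks lay on Ctsb and Ctsk, and the other 8 genes had none in the table. The study reported more peaks, on more genes, than the table holds. Absence from the table therefore does not show that a gene had no peak. In GENCODE M21 (mm10), the first Ctsb peak, chr14:63143306-63143355, and the second, chr14:63143381-63143505, lay in exon 10 of 10, in the 3′UTR on the plus strand, 25 bases apart, from 980 to 1179 bases after the last coding base. They share a transcript and are not independent. The Ctsk peak, chr3:95502705-95506565, ran from exon 5 across an intron into exon 6 and held 100 exonic bases, all coding. Methylation by the METTL3 complex is known mainly from a motif of A, G or T, then A or G, then AC, then A, C or T. The matches on the transcript are shown in capitals within 30 bases.
Ctsb, first peak, chr14:63143319-63143348: tacatatgacccGGACTgccatcttcttag
Ctsb, second peak, chr14:63143446-63143475: acagttcaaaggGAACAgggagcctcactc
Ctsk, chr3:95502715-95502744: gaggcggctataTGACCactgccttccaat
Ctsk, chr3:95502755-95502784: gaacggaggcatTGACTctgaagatgctta
The first Ctsb peak also held the match TGACC, visible in lower case 6 bases before GGACT. Such matches are common, being present in 60% of 895 unspliced peaks of 50 bases, 88% of 175 of 100 bases and 86.5% of 96 of 125 bases. GGACT itself was present in 5.14% of the peaks of 50 bases.

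In the first Ctsb peak, 23 input and 19 IP reads were counted in control cells and 19 input and 48 IP reads in MA-treated cells, each a sum over 3 replicates. The deposited log2 IP/input ratio was 0.12 ± 0.45 in control and 1.18 ± 0.39 in MA (± counting error of the pooled reads). It is not the plain ratio of these reads, since the study estimated depth factors from unmethylated background regions. The deposited change was 0.41 (adjusted p = 0.409, exomePeak2), smaller than the difference of the ratios, as for 2639 of the 2643 peaks. The difference of the ratios, 1.05, had a 95% counting interval from −0.11 to 2.22. Over all peaks together the IP reads were also higher in MA (359889 against 267002 in control) and the input reads lower (214778 against 288659). Scaled by these totals, the change of the first Ctsb peak was 0.76 ± 0.59 (± counting error), which did not pass the threshold.

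In the second Ctsb peak, 37 input and 36 IP reads were counted in control and 44 and 84 in MA. The ratios were 0.36 ± 0.34 and 0.78 ± 0.27, and the deposited change was 0.22 (adjusted p = 0.677, exomePeak2). Over all peaks the median change was 0.20, so the second Ctsb peak stood near the middle of the table, at percentile 50.9, and the first at percentile 62.9. From a browser view, the study reported raised m6A on Ctsb after MA. It proposed that enhanced m6A might cause the activation of autophagy genes. Both deposited changes on Ctsb were positive, but neither was called. Which region of Ctsb the study viewed is not stated in its text.

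In the Ctsk peak, 41 input and 48 IP reads were counted in control and 54 and 85 in MA. The ratios were 0.64 ± 0.31 and 0.51 ± 0.25, and the deposited change was −0.07 (adjusted p = 0.91, exomePeak2). None of the 3 peaks was called at an unadjusted or adjusted p under 0.05 by exomePeak2 or from the pooled reads (0 of 3 in each), against 31.1% of 2642 tested peaks that passed the same rule as for expression, in either direction. With 109 to 228 reads in all per peak, against a median of 231 over all peaks, changes within the counting interval of a peak were not detectable. These intervals and errors cover counting error only, not the spread between libraries.

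**Figure D5:**
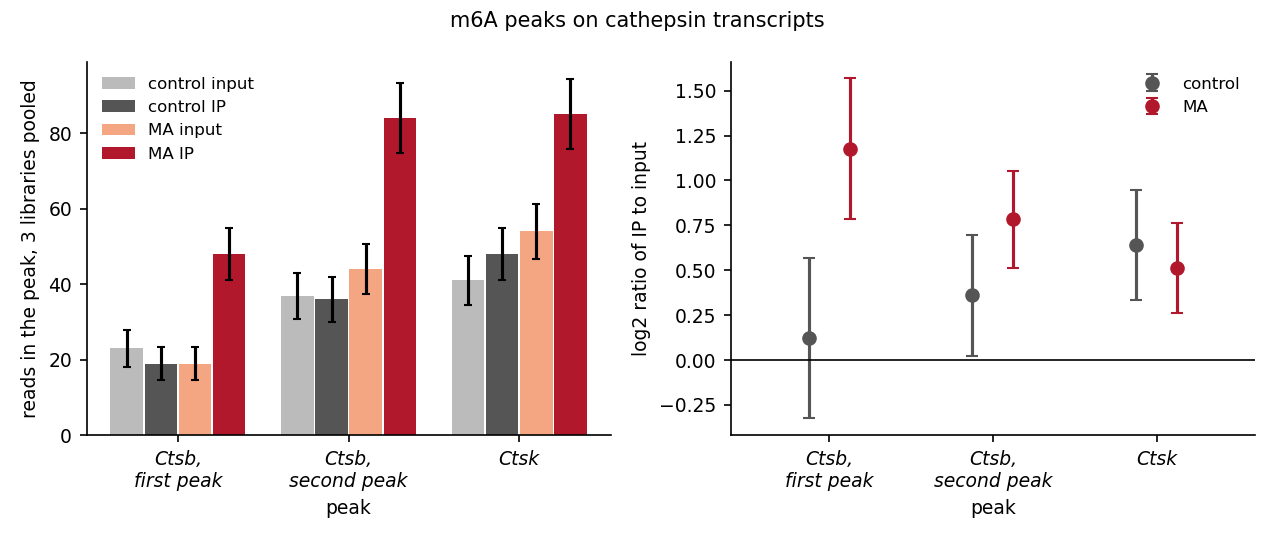
Left, reads in each peak of Ctsb and Ctsk by group, pooled over 3 libraries, with bars for the square root of the count. Right, log2 ratio of IP to input in control and MA with its counting error. MA IP reads are the highest of each peak, as they are in the totals over all peaks, and the control and MA ratios lie farthest apart in the first Ctsb peak.

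Among genes that act with cathepsins, 4 carried a peak in the table. Of these 4 peaks, 2 were called, both higher, against 31.1% of all tested peaks called in either direction. The count therefore says little about these genes. The Gga2 peak (chr7:121988697-121988746) had 33 input and 14 IP reads in control and 11 and 65 in MA, a change of 2.75 (adjusted p = 0.0033, exomePeak2). The M6pr peak (chr6:122317566-122317615) had 16 and 9 reads in control and 6 and 39 in MA, a change of 1.80 that passed only the unadjusted test (adjusted p = 0.0567, exomePeak2). Scaled by the totals over all peaks, which were lower for input and higher for IP in MA, the changes were 2.94 ± 0.66 for Gga2 and 2.67 ± 0.87 for M6pr (± counting error). The peaks of Gnptab and Prcp were not called.

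Markers of neurons, of microglia and macrophages and of fibroblasts were read as a description of this single cell line. Of 6 neuronal markers, Map2, Snap25 and Gap43 were listed at 0, Rbfox3 and Syp had base means of 1.15 and 4.70, and Tubb3, at 473, fell by 0.40 on the log2 scale (adjusted p = 0.0145), so most defining neuronal markers were listed at 0 or near it. Of 8 microglia and macrophage markers, P2ry12 was listed at 0 and Cx3cr1, Itgam and Ptprc had base means of 1.34 to 2.33, with Csf1r at 8.06 and Aif1 at 64.3. Cd68, which encodes a lysosomal membrane glycoprotein, had a base mean of 327 and rose by 1.94 ± 0.21 (adjusted p = 8.97e-18), and Tmem119 fell by 0.72 with an SE of 0.18 (adjusted p = 0.00111). Of 3 fibroblast markers, Col1a1 had a base mean of 100160 and fell by 0.94 with an SE of 0.04 (adjusted p = 3.44e-130), Dcn fell by 0.78, and Pdgfra at 8906 was not called. The part of these markers in the changes of the cathepsins was not tested. In bulk samples, fewer cells of a type and less RNA per cell cannot be told apart.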

How the data were processed

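MeRIP-seq input and IP libraries of HT22 cells were compared as groups. Per the paper's methods, the authors used fastp for trimming, HISAT2 for alignment (mm10), StringTie for quantification, DESeq2 for expression changes and exomePeak2 for peaks and their changes. Versions and the libraries behind the base mean are not given in the sources used here, and MA input against control input was assumed. The deposited base mean is a scaled signal, the mean count after division by size factors. The log2 fold changes, their SE, the Wald statistic (a score) and the p-values are the authors' own comparison, deposited as DESeq2 and exomePeak2 write them, and no count model was run here because single-library values were absent. Reads per peak are counts that the authors pooled by group. The number of single-library columns left unmatched was 0. The dose and time are from the paper's methods.

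Here the sign of expression changes was reversed, a choice that the table does not settle, calls required an unadjusted p below 0.05 together with over 1.2-fold, and 95% intervals were taken as normal. Counting errors were computed from the pooled reads. The design provided for a count model and replicate tests only with single-library values. Lengths, overlaps and positions came from GENCODE M21, promoters from RefSeq windows and sequences from GRCm38.p6. Computation used pandas 2.3.3, numpy 2.4.6, matplotlib 3.10.9 and scipy 1.17.1 under Python 3.11.15, and the calling and pooled-read steps were tested on simulated data. The genes and lists were chosen with earlier results of these data known. Named genes were the 10 members, every pathway-list gene called or with a base mean of at least 1000, every peak on a member and every called peak on a pathway-list gene. Those named outside this rule are listed in the results. Alternatives were an adjusted p, other fold limits, p re-adjusted over all genes or those with base mean of 10 or more, centring on the median, a weighted mean, pooled-read tests and another transcript length.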

Additional observations from a re-analysis of the deposited data

How the results depend on the processing

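Of 58 alternative values, 45 kept their direction and side of the threshold or stayed close to the first value. Some of these 45 could not have moved, so the tally does not measure robustness. Ctsb, Ctsk, Ctso, Ctss and Ctsz have equal longest and mean transcript lengths, and stricter limits cannot raise a count of 0 peaks. Centred peaks were judged by direction alone. A count within 1.5 times the first, such as 6 against 4, was taken as close. The 4 genes called higher (Ctsa, Ctsb, Ctsd and Ctsz) were the same genes with the adjusted p of the table and with p re-adjusted over all genes or over genes with a base mean of 10 or more. With a 1.5-fold limit only Ctsb was called higher (1 gene), and 0 genes were called lower. Ctso was called lower by 0 of the 3 kinds of adjusted p. Without a fold limit 6 genes were called higher. Centring on the median of all tested genes moved each change by 0.01 and brought Lgmn past the fold limit, at 0.27. The mean of the 10 changes weighted by the inverse squared SE was 0.40, and the median over the 7 genes with a base mean of 10 or more, added after seeing the data, was 0.37. For the pathway lists, alternatives also added after seeing the data, 4 genes were called higher and 0 lower at 1.5-fold, and 2 lower without a fold limit, Cpq joining Igf2r. The number of member peaks called stayed at 0 in 5 alternatives. With the mean length of coding transcripts, the levels of Ctsa and Ctsl moved by more than 1.5 times. The causes of these shifts beyond the limits themselves were not tested. No paired analysis was possible because the tables hold no values of single libraries, and for the same reason no replicate was left out. Low listed counts limit Ctsk, Ctss and Ctsc, and depth limits all 3 peaks.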

Other observations

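The Ctsk peak held many reads beside the low base mean of the gene. Its 95 input reads, pooled over 6 libraries, stood against a base mean of 7.84, a ratio of 12.1 that lay at percentile 97.6 of the 2472 peaks on genes with a base mean above 0. The Ctsb peaks, with 42 and 81 input reads against a base mean of 9007, had ratios of 0.00466 and 0.00899, at percentiles 2.04 and 4.79. Over the 2575 peaks with a base mean, Spearman's rho between input reads and base mean was 0.24, a description across peaks that share libraries.

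Genes with TCACGTG in a promoter window, the letters found in Ctsa, Ctsd and Lgmn, were 688 of the 9817 tested genes in the promoter table with a base mean of 10 or more. Their median log2 fold change was 0.08, and that of all 9817 was 0.00. Of the 3 members, Ctsa and Ctsd had 0.57 each and Lgmn 0.26. The medians and these values are a description, with no test.

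Csta1, a stefin, carried exactly the values of Ctss, a base mean of 0.658 and a log2 fold change of 2.90, as did the other genes of that group of 68.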
